A study of Mus musculus with 10 samples.

Results

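Keratin-associated proteins are the matrix proteins of hair and nail. They fill the space between the hard keratin filaments of hardening keratinocytes and bind to them through disulphide bonds. The family is read in 3 classes: high-sulfur and ultra-high-sulfur proteins, both rich in cysteine, and glycine-tyrosine-rich proteins, which hold little cysteine. In the mouse digit the nail plate is the main site where such proteins are laid down, and the nail matrix is the tissue that makes them. All genes whose symbol begins with Krtap were taken from the table of protein-coding genes, which gave 56 of its 21729 genes. By the number after Krtap, which names the subfamily, 16 were glycine-tyrosine-rich (subfamilies 6, 7, 8 and 19 to 22), 21 high-sulfur and 19 ultra-high-sulfur (subfamilies 4, 5, 9, 10, 12 and 17). They belonged to 27 subfamilies. The classes by number overlap in cysteine, which made up 4% of the codons in Krtap15, a high-sulfur gene. In Krtap20-2, a glycine-tyrosine-rich gene, it made up 16.7%.

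The study sequenced RNA from the dissected blastema, the tissue that forms at an amputated digit tip, and asked what fails there when the transcription factor gene Lmx1b loses its limb enhancers. Mutant mice carried the ΔLARM1/2 deletion of these enhancers, and wild type mice did not. All mice were of a mixed CD1 and C57Bl/6 background, and each library pooled 6 amputated central digits of the hindlimb. At 12 days post amputation (dpa) the mice were 33 days old, with 2 wild type and 3 mutant libraries, and at 14 dpa they were 35 days old, again with 2 wild type and 3 mutant libraries. The libraries of a group are described as biological replicates without the animals behind them, so the p-values measure the spread between these libraries.

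Library totals ran from 69998104 to 101632364 estimated read counts. Lmx1b itself lay between 0.24 and 0.68 TPM (a share of all transcripts, corrected for transcript length) in the 4 wild type libraries and between 0 and 0.11 TPM in the 6 mutant libraries. One library titled as mutant, replicate 1 of 14 dpa, carries a wild type genotype tag. It held 0.04 TPM of Lmx1b and a summed Krtap level of 966 TPM, beside 264 and 837 TPM in the other mutant libraries of 14 dpa and 20267 and 21315 TPM in the wild type libraries of that day. The title was followed. Replicate 1 of the wild type at 14 dpa had 81.5% of its counts in protein-coding genes, against 87.7% to 93.6% in the other 9 libraries. Markers of blastema fibroblasts were present in every library, but the genotypes did not overlap in the summed level of 8 genes. This sum was 2025 to 4613 TPM in the wild type and 344 to 1422 TPM in the mutants.

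Krtap transcripts made up a large share of the wild type digit tip and a small share of the mutant one. In the wild type libraries of 12 dpa they took 4.14% and 7.81% of all TPM, and in the mutant libraries of that day 0.139%, 0.527% and 0.341%. At 14 dpa the wild type shares were 2.03% and 2.13%, against 0.0966%, 0.0264% and 0.0837% in the mutants. No mutant library reached a wild type library on either day. The mean summed level was 17.8-fold lower in mutants at 12 dpa, with 59751 ± 25897 TPM (SD, n = 2) in the wild type and 3358 ± 1938 TPM (SD, n = 3) in the mutants. At 14 dpa it was 30.2-fold lower, with 20791 ± 741 TPM (SD, n = 2) and 689 ± 374 TPM (SD, n = 3). These are bulk samples, in which fewer cells of a type and less RNA per cell cannot be told apart.

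**Figure D1:**
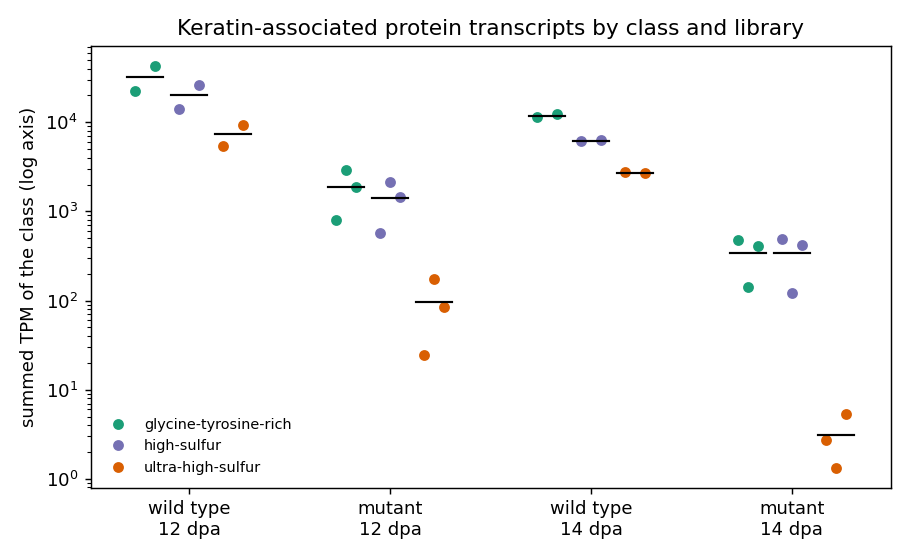
Summed TPM of the 3 Krtap classes (log axis) in the 10 libraries, 1 point per library, with a bar at the mean of the group. Mutant points lie below wild type points of the same day in each class, and the ultra-high-sulfur class of the mutants at 14 dpa sums to between 1.34 and 5.27 TPM.

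Class shares by subfamily number stood apart between the genotypes for 2 of the 3 classes. Ultra-high-sulfur genes gave 12.0% to 13.5% of the Krtap TPM in the 4 wild type libraries, 1.77% to 3.35% in the mutants of 12 dpa and 0.283% to 0.629% in the mutants of 14 dpa. High-sulfur genes gave 29.6% to 33.7% in the wild type and 41.0% to 50.3% in the mutants. The glycine-tyrosine-rich share overlapped between genotypes, at 53.4% to 57.9% in the wild type and 49.3% to 57.3% in the mutants. This last share depends on how Krtap7-1 is placed. By the codons of the coding sequence (glycine and tyrosine at least 35%, otherwise cysteine at least 30% for ultra-high-sulfur) it is high-sulfur, and Krtap16-3 and Krtap28-13 are glycine-tyrosine-rich. Krtap9-3 and Krtap12-1 are then high-sulfur, Krtap1-3 is ultra-high-sulfur, and Krtap5-2 and Krtap5-3 are glycine-tyrosine-rich. The glycine-tyrosine-rich share was then 44.7% to 49.1% in the wild type and 29.5% to 38.0% in the mutants, with no overlap, and the ultra-high-sulfur share 10.8% to 12.5% and 0.167% to 2.66%. Summed over the class, mutants kept 1.29% of the wild type mean of ultra-high-sulfur transcripts at 12 dpa and 0.115% at 14 dpa. For the glycine-tyrosine-rich class these values were 5.76% and 2.89%, and for the high-sulfur class 6.99% and 5.52%.

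Of the 56 genes, 44 passed the filter on low counts and were tested, and 11 of these passed it through wild type libraries only and so had to differ. They were Krtap5-4, Krtap14, Krtap15, Krtap16-1, Krtap16-3, Krtap17-1, Krtap19-1, Krtap19-2, Krtap19-9b, Krtap24-1 and Krtap28-13. The other 33 reached the minimum in 2 or more mutant libraries. Over both days, all 44 tested genes were lower in mutants by edgeR's quasi-likelihood test at a Benjamini-Hochberg adjusted p below 0.05, where 22.2% of the 20216 genes tested were called lower. Their median log2 difference was -7.27, and it was the same with the 5 genes that had no mutant count set to their lower bound. The median over all genes tested was 0.02. At 12 dpa 41 of 44 were called lower (9.34% of all genes tested), with a median of -6.23. At 14 dpa 43 of 44 were called lower (17.2% of all genes tested), with a median of -8.22, or -6.94 with the 6 genes at 0 in those mutants set to their bound. No tested Krtap gene was called higher on either day, while 7.18% of all genes were at 12 dpa and 16.1% at 14 dpa.

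Among the 33 genes that mutants also expressed above the minimum, 33 were called over both days, 31 at 12 dpa and 33 at 14 dpa. The minimum could be reached in mutant libraries of either day. At 14 dpa the mutants held 1 count of Krtap9-1, 2 of Krtap4-13 and 9 of Krtap4-2. Their calls on that day rest on the wild type level, so they too had to differ there. For 42 of the 44 genes every mutant library lay below every wild type library on both days, against 19.3% of all genes tested. At 12 dpa alone this held for 43 of 44 (26% of all genes) and at 14 dpa alone for 43 of 44 (31.6%). The exceptions were Krtap26-1 at 12 dpa and Krtap5-4 at 14 dpa. These counts include the 11 genes tested through wild type libraries only, which had to differ and to which Krtap5-4 belongs. Among the 33 other genes, Krtap26-1 was the only exception. When the library tagged wild type but titled mutant entered the fit as wild type, 0 genes of the whole table were called in any of the 3 genotype comparisons. In that fit 44, 43 and 42 of the 44 Krtap genes had an unadjusted p below 0.05 over both days, at 12 dpa and at 14 dpa. The share of all genes with such a p in that fit is not given, so these counts show nothing particular to the Krtap genes.

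The short stretch before the transcription start is shown for 5 genes that mark the range of what mutants kept, from the gene with no mutant count (Krtap16-3) and an ultra-high-sulfur gene (Krtap4-1) to 3 genes that mutants kept in part (Krtap3-1, Krtap13 and Krtap26-1). Each line gives the 80 bases up to the start, 5′ to 3′ on the strand of the gene, from RefSeq's promoters of GRCm38.p6. All 5 lie on the minus strand, and the capitals mark the motif TATAAA of the TATA box. The regions are chr16:88962874-88962953 for Krtap16-3, chr11:99628240-99628319 for Krtap4-1, chr11:99566631-99566710 for Krtap3-1, chr16:88751629-88751708 for Krtap13 and chr16:88647797-88647876 for Krtap26-1.
Krtap16-3: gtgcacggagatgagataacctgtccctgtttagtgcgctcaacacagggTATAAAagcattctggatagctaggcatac
Krtap4-1: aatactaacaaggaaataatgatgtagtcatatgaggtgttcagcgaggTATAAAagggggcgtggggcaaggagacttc
Krtap3-1: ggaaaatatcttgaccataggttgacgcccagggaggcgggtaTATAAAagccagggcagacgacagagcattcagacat
Krtap13: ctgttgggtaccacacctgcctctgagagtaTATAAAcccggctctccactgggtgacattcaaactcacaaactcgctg
Krtap26-1: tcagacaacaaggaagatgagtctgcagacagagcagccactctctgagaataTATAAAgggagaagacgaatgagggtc
The first base of TATAAA lay 30 bases before the start in Krtap16-3, 31 in Krtap4-1, 37 in Krtap3-1, 49 in Krtap13 and 27 in Krtap26-1. Promoters of 250 bases before to 50 bases after the start were matched for 51 of the 56 genes. TATAAA on the strand of the gene was found in 42 of these 51 (82.4%), against 8.32% of 32851 promoters of the same length. It began 40 to 21 bases before the start in 31 of 51 (60.8%), against 1.87% of all. The letters CAATAAA, searched on both strands and bound by homeobox factors of the Hox13 group, were in 0 of 51 windows and in 4.60% of all. CTTTGA, the core bound by Lef and Tcf factors, was on either strand of 15 of 51 (29.4%) and of 16.003% of all. All 5 genes shown held TATAAA, and whether the motif goes with what mutants kept was not tested.

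Glycine-tyrosine-rich genes gave the most transcripts of the 3 classes in the wild type, by subfamily number. Krtap7-1, the single gene of its subfamily in the table, had the highest level of all 56 genes in the wild type of 12 dpa. It stood at 3939 and 8496 TPM in the wild type and 294, 931 and 625 TPM in the mutants of 12 dpa, and at 14 dpa at 1763 and 2119 TPM against 192, 56.7 and 139.9 TPM. Each mutant library lay below each wild type library, and mutants kept 9.92% of the wild type mean at 12 dpa and 6.66% at 14 dpa. The difference over both days was -3.93 on the log2 scale (SE 0.41, adjusted p = 0.000297). Krtap8-1 stood at 3326 and 7517 TPM in the wild type and 159, 601 and 273 TPM in the mutants of 12 dpa, and at 14 dpa at 1402 and 1764 TPM against 34.8, 21.1 and 53.2 TPM. It was lower by a wider margin than Krtap7-1 at 14 dpa, with 2.30% kept, and its log2 difference over both days was -5.02 (SE 0.44, adjusted p = 0.000157).

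Members of subfamily 6, small proteins of which glycine and tyrosine make up 65.2% to 69.2% of the codons, differed among themselves. Krtap6-5 was at 2262 and 4113 TPM in the wild type and 86.96, 335 and 247 TPM in the mutants of 12 dpa, and at 14 dpa at 1237 and 1223 TPM against 79.9, 18.7 and 66.05 TPM. Krtap6-3 had wild type levels of the same order, 1994 and 3123 TPM at 12 dpa and 1016 and 1072 TPM at 14 dpa, but mutant levels of 10.4, 53.3 and 24.1 TPM and then 0.78, 1.09 and 1.45 TPM. Mutants thus kept 6.99% of Krtap6-5 and 1.14% of Krtap6-3 at 12 dpa, and 4.46% and 0.106% at 14 dpa. The log2 differences over both days were -4.50 (SE 0.49, adjusted p = 0.000394) and -8.50 (SE 0.49, adjusted p = 2.98e-05), and the difference between these 2 genes was not tested. Krtap6-5 and Krtap6-1 had non-whole counts in all 10 libraries, so some of their reads were divided between genes and their single levels are uncertain. How large a part was divided was not measured. In all, 25 of the 56 genes had non-whole counts in at least 50% of their values above 0. Of the 50 genes with a count, 14 had whole counts in every library (within 0.005).

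Krtap22-2, the most abundant Krtap gene in the wild type of 14 dpa, was at 3528 and 5886 TPM in the wild type and 76.2, 316 and 201 TPM in the mutants of 12 dpa, and at 14 dpa at 1816 and 2273 TPM against 35.7, 11.5 and 34.7 TPM. No mutant library overlapped a wild type library, and the log2 difference over both days was -5.75 (SE 0.48, adjusted p = 0.000133). Krtap21-1 had a log2 difference of -5.64 (SE 0.54, adjusted p = 0.00025), from 2323 and 4304 TPM in the wild type of 12 dpa to 48.3, 189 and 122 TPM in its mutants. Krtap20-2 was far less abundant, at 97.5 and 155 TPM in the wild type of 12 dpa and 2.56, 17.8 and 18.02 TPM in its mutants, with a log2 difference over both days of -4.73 (SE 0.64, adjusted p = 0.00115).

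By the fitted log2 difference over both days, subfamily 19 held both extremes of the class. These were -13.2 in Krtap19-9b, tested through wild type libraries only, and -3.80 in Krtap19-5. Krtap19-9b was at 486 and 776 TPM in the wild type and 0, 0.11 and 0.26 TPM in the mutants of 12 dpa, and at 14 dpa at 372 and 284 TPM against 0, 0.07 and 0 TPM. At 14 dpa the mutants held 2 counts and the wild type 20918, a ratio of 15765 (exact 95% interval 4364 to 130188, counting error only). Krtap19-5 was at 54.7 and 144 TPM in the wild type and 5.23, 18.1 and 23.97 TPM in the mutants of 12 dpa. Mutants kept 15.9% of it at 12 dpa, where it did not pass the test (log2 difference -3.02, SE 0.89, adjusted p = 0.0547), and 5.44% at 14 dpa, where it did (-4.59, SE 0.96, adjusted p = 0.0114).

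**Figure D2:**
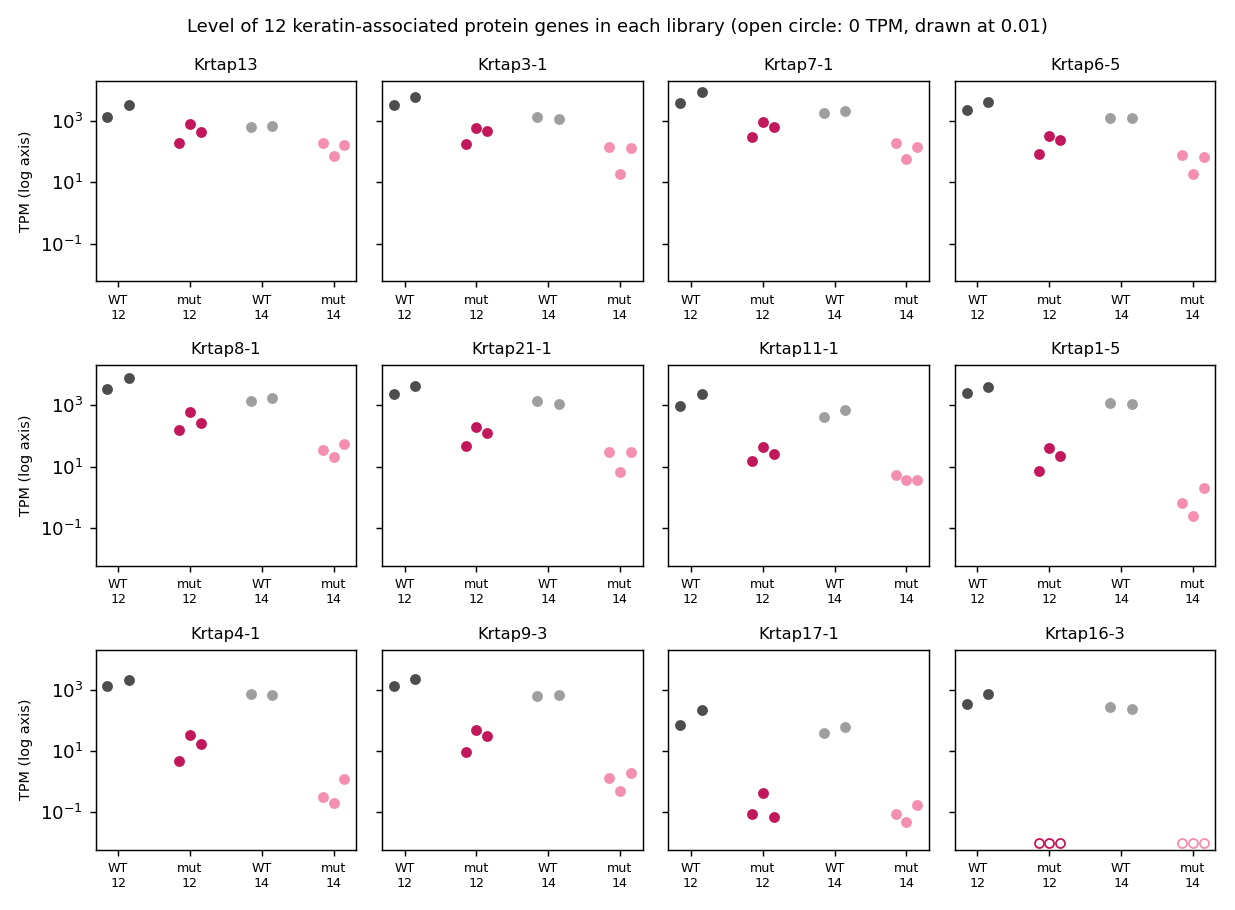
TPM of 12 Krtap genes in each library (log axis), with 1 point per library and the 4 groups side by side. Krtap13 keeps a mutant level of 72.4 TPM or more in every library, Krtap4-1 drops to 1.23 TPM or less in the mutants of 14 dpa, and Krtap16-3 is at 0 in all 6 mutant libraries.

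The high-sulfur class ranged widest, from Krtap26-1 with 41.0% kept at 12 dpa to genes with no mutant count. Its most abundant gene in the wild type was Krtap3-1, of subfamily 3, whose members carry 20.2% to 20.4% cysteine codons. Krtap3-1 was at 3348 and 5916 TPM in the wild type and 174, 589 and 482 TPM in the mutants of 12 dpa, and at 14 dpa at 1321 and 1174 TPM against 146, 18.9 and 132 TPM. The groups did not overlap, and mutants kept 8.96% at 12 dpa and 7.95% at 14 dpa. Its log2 difference over both days was -3.91 (SE 0.58, adjusted p = 0.00146). Krtap3-2 kept 5.89% and 5.66%, and Krtap3-3 kept 9.06% and 8.59%. All 3 had non-whole counts in every library, so some of their reads were shared.

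Krtap13 had the smallest log2 difference over both days of the 44 tested genes, -2.58 (SE 0.42, adjusted p = 0.00198). The wild type libraries of 12 dpa held 1334 and 3343 TPM of it against 188, 771 and 441 TPM in the mutants, and those of 14 dpa 647 and 691 TPM against 197, 72.4 and 160.3 TPM. Mutants kept 19.96% and 21.4% on the 2 days, and no mutant library reached a wild type one. It became the most abundant Krtap gene of the mutants at 14 dpa, while in the wild type of that day 11 Krtap genes were above it. Krtap13-1, of the same subfamily, was kept at 8.70% and 3.57%. Krtap13 had non-whole counts in all 10 libraries, so some of its reads were shared and its level is uncertain.

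Krtap26-1 was the gene of the class with overlapping groups. At 12 dpa it stood at 8.67 and 25.9 TPM in the wild type and 1.73, 15.8 and 3.7 TPM in the mutants, so the second mutant library lay above the first wild type library. It did not pass the test on that day (log2 difference -1.59, SE 0.83, adjusted p = 0.216). At 14 dpa, with 1.85 and 3.85 TPM against 0.27, 0.1 and 0.26 TPM, it did (-4.0003, SE 0.96, adjusted p = 0.0164). Over both days it was called (-2.80, SE 0.63, adjusted p = 0.00844), but not in limma on log2(TPM + 1), where the difference was -1.52 (adjusted p = 0.0556). Krtap27-1, which lies beside it, was called with a log2 difference over both days of -4.22 (SE 0.40, adjusted p = 0.000191).

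Other high-sulfur genes fell much further. Krtap1-5 was at 2472 and 3901 TPM in the wild type and 7.45, 41.9 and 22.4 TPM in the mutants of 12 dpa, and at 14 dpa at 1151 and 1113 TPM against 0.66, 0.25 and 1.96 TPM. Its log2 difference over both days was -8.95 (SE 0.73, adjusted p = 0.000133). Krtap2-4 was at 883 and 1576 TPM in the wild type and 4.52, 34.9 and 21.3 TPM in the mutants of 12 dpa. At 14 dpa it was at 374 and 341.5 TPM against 0.75, 0.31 and 0.63 TPM. Its log2 difference over both days was -7.95 (SE 0.59, adjusted p = 9.01e-05). Krtap11-1 had a log2 difference over both days of -6.75 (SE 0.36, adjusted p = 1.97e-05), with 1.70% kept at 12 dpa and 0.746% at 14 dpa. Mutants of 12 dpa held 15.2, 43.99 and 26.6 TPM of it, below the 970.5 and 2382 TPM of the wild type.

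By subfamily number, ultra-high-sulfur genes were the class with the least left in mutants. Krtap4-1, with 38.5% cysteine codons, was at 1347 and 2046 TPM in the wild type and 4.86, 33.2 and 16.7 TPM in the mutants of 12 dpa, and at 14 dpa at 702 and 648 TPM against 0.31, 0.2 and 1.23 TPM. Mutant and wild type libraries stood at least 2 orders of magnitude apart at 14 dpa. The log2 difference over both days was -8.69 (SE 0.72, adjusted p = 0.000167). Krtap9-3 was at 1261 and 2139.7 TPM against 9.0, 47.6 and 30.2 TPM at 12 dpa, and at 14 dpa at 606 and 640.4 TPM against 1.29, 0.51 and 1.95 TPM, for wild type and mutant in that order. Its log2 difference over both days was -7.75 (SE 0.55, adjusted p = 6.97e-05). Krtap9-3 is placed here by its number, while its 27.2% of cysteine codons make it high-sulfur by codons. Across the 8 genes of subfamily 4, mutants kept between 0.633% and 1.72% of the wild type mean at 12 dpa and between 0.0206% and 0.175% at 14 dpa.

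Krtap17-1, whose human counterpart is a protein of the hair cuticle, was at 71.1 and 210.1 TPM in the wild type and 0.09, 0.42 and 0.07 TPM in the mutants of 12 dpa. At 14 dpa it was at 37.02 and 58.6 TPM against 0.09, 0.05 and 0.17 TPM. It was the ultra-high-sulfur gene with the least left at 12 dpa apart from Krtap5-4. Its fitted log2 difference over both days was -9.47 (SE 0.48), in a gene tested through its wild type libraries only. Krtap9-1 had 24156 wild type counts and 1 mutant count at 14 dpa, a ratio of 36411 (exact 95% interval 6535 to 1.44e+06, counting error only).

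For 5 tested genes no read was counted in any mutant library, and a lower bound of the fold was set with a floor of 3 counts over the group. Krtap16-3 stood at 342 and 691 TPM in the wild type of 12 dpa and 266 and 239 TPM at 14 dpa, from 61535 counts, and was at least 33163-fold higher there than in the mutants. The number of its subfamily places it with the high-sulfur genes, while its coding sequence holds 59.3% glycine and tyrosine codons and 8.14% cysteine codons. For the others, the wild type level was at least 541-fold higher for Krtap15, 474-fold for Krtap19-2, 25.9-fold for Krtap19-1 and 17.8-fold for Krtap5-4. These 4 genes were low in the wild type too, with 11.5 TPM in Krtap15 as the highest single value. The call for Krtap5-4 over both days (adjusted p = 0.027) was lost without wild type replicate 1 of 12 dpa (0.0612), without replicate 2 of 12 dpa (0.0742) and without replicate 1 of 14 dpa (0.9999). Krtap5-4 was also not called at 14 dpa (adjusted p = 0.214), and Krtap19-1 was not called at 12 dpa (adjusted p = 0.0595).

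The other 12 genes were too low to test. Krtap5-1, Krtap5-2, Krtap5-3, Krtap9-5, Krtap29-1 and Krtap31-1 had no count in any of the 10 libraries. Krtap10-4, Krtap12-1, Krtap19-4, Krtap19-9a, Krtap31-2 and Krtap5-5 had some, none above 1.27 TPM. Subfamilies 5, 10 and 12 are known from the cuticle of the hair shaft, and of their 7 genes in the table Krtap5-4 alone passed the filter, at 0.23 TPM or less. Krtap19-9a was at 0.79 and 1.27 TPM in the wild type of 14 dpa, from 2 counts in all, and at 0 elsewhere.

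**Figure D3:**
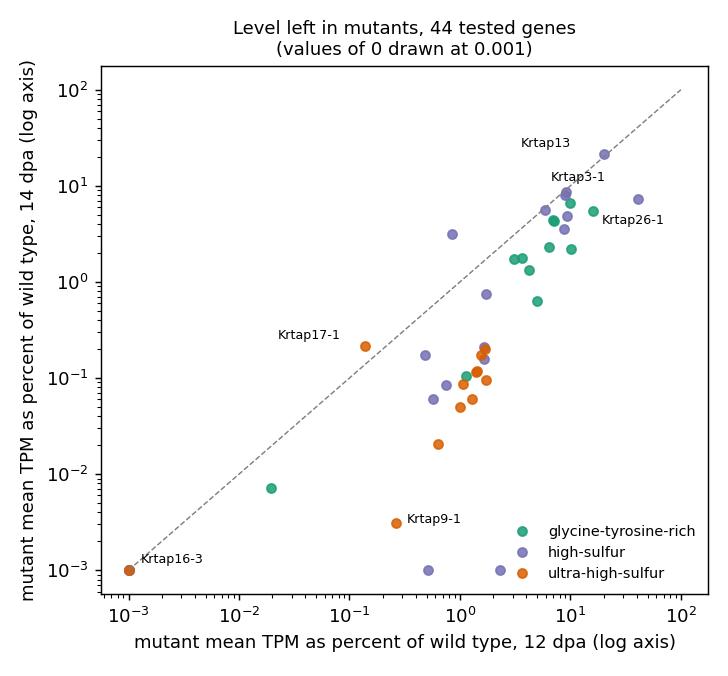
Mutant mean TPM as a percent of the wild type mean at 12 dpa (x) and 14 dpa (y), both on log axes, for the 44 tested genes coloured by class. The dashed line marks equal values, the ultra-high-sulfur genes sit below it apart from Krtap17-1 and the gene at 0, and the 5 genes with no mutant count share the point at the lower left.

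The genotype difference was compared between the 2 days. For 38 of the 44 tested genes the fitted genotype difference was wider at 14 dpa than at 12 dpa. The median difference between days over all genes tested was -0.02. For the 5 tested genes with no mutant count, the fitted value reflects the wild type change alone. By edgeR's test of the difference between days 0 Krtap genes and 0% of all genes were called. The smallest adjusted p of a Krtap gene was 0.544. Unadjusted, 14 Krtap genes had a p below 0.05, and the share of all genes is not given. DESeq2 also called 0, with 15 genes below 0.05 unadjusted. These fitted values varied between genes, also within a subfamily. Krtap3-1 had -0.16 (SE 1.10), Krtap3-2 -0.00 (SE 1.04), Krtap3-3 -0.05 (SE 0.94) and Krtap13 0.12 (SE 0.84) on the log2 scale. Krtap13-1, of the subfamily of Krtap13, had -1.23 (SE 0.98). Krtap4-1 had -3.62 (SE 1.21), Krtap2-4 -3.37 (SE 1.01) and Krtap6-3 -3.41 (SE 0.83). The other genes of subfamily 6 lay between -0.82 and -0.63. None of these differences passed the threshold after adjustment over all genes.

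Within genotypes, levels at 14 dpa were mostly below those at 12 dpa. In the wild type the fitted change was negative for 41 of 44 genes, with a median of -1.08 on the log2 scale, against -0.01 over all genes tested. By edgeR 0 were called, where 0% of all genes were called. Unadjusted, 4 Krtap genes had a p below 0.05. DESeq2 called 0 as well. On normalised counts per library, both wild type libraries of 14 dpa lay below both of 12 dpa for 34 of the 44 genes, against 22.4% of all genes tested. In the mutants the median was -2.40, against -0.02 over all genes tested. Unadjusted, 31 Krtap genes had a p below 0.05, and the share of all genes is not given. By edgeR 0 were called, where 0.0346% of all genes were called, 0.0198% lower and 0.0148% higher. The smallest adjusted p was 0.0555, for Krtap6-3. DESeq2 called 25 of the 44 lower at 14 dpa, and 5.53% of the 14295 genes to which it gave an adjusted p, so this call depends on the test. Every mutant library of 14 dpa lay below every one of 12 dpa for 27 of the 44 genes, against 11.8% of all genes tested. Class medians of the mutant change were -1.92 for glycine-tyrosine-rich, -1.97 for high-sulfur and -4.57 for ultra-high-sulfur genes, which were not compared by a test.

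The libraries of a group also differed together. Wild type replicate 2 of 12 dpa was above replicate 1 for all 46 genes with a count in both, by a median of 2.00-fold over the tested genes. Of the mutant libraries of 12 dpa, replicate 2 was the highest for 32 tested genes, and replicate 1 was the lowest for 35 of the 39 with a count there. The order of the genes by level was kept more closely within a genotype than between genotypes. Spearman's rho across the 44 tested genes, which share libraries and are not independent, was 0.993 between the wild type means of the 2 days and 0.977 between the mutant means. Between genotypes it was 0.895 at 12 dpa and 0.831 at 14 dpa.

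What the genes kept in mutants was set against their composition and their place. Coding sequences were found for 55 of 56 genes in the GENCODE M21 annotation. Spearman's rho between the percent of cysteine codons and the percent kept was -0.223 at 12 dpa and -0.213 at 14 dpa across the 44 tested genes, a weak relation and a description only. By chromosome, the 19 tested genes of chromosome 11 had a median log2 difference over both days of -8.29, and the 23 of chromosome 16 had -5.75 (-5.64 with genes at 0 in the mutants set to their bound). The 2 chromosomes carry different classes: all tested glycine-tyrosine-rich genes lie on chromosome 16, and chromosome 11 has the subfamilies 4, 9 and 17. Within the high-sulfur class, which lies on both, the medians were -6.92 for 8 tested genes of chromosome 11 and -6.75 for 9 of chromosome 16.

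Neighbours could differ sharply. In the order of Krtap genes on chromosome 11, Krtap3-3, Krtap3-2 and Krtap3-1 are followed by Krtap1-5, Krtap1-4 and Krtap1-3. The first 3 kept 5.89% to 9.06% of the wild type mean at 12 dpa, and the next 3 kept 0.566% to 1.66%. On chromosome 16, Krtap19-9b and Krtap16-3, with 0.0195% and 0% kept at 12 dpa, are followed by Krtap22-2, Krtap6-1 and Krtap6-5, with 4.20% to 7.15% kept.

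**Figure D4:**
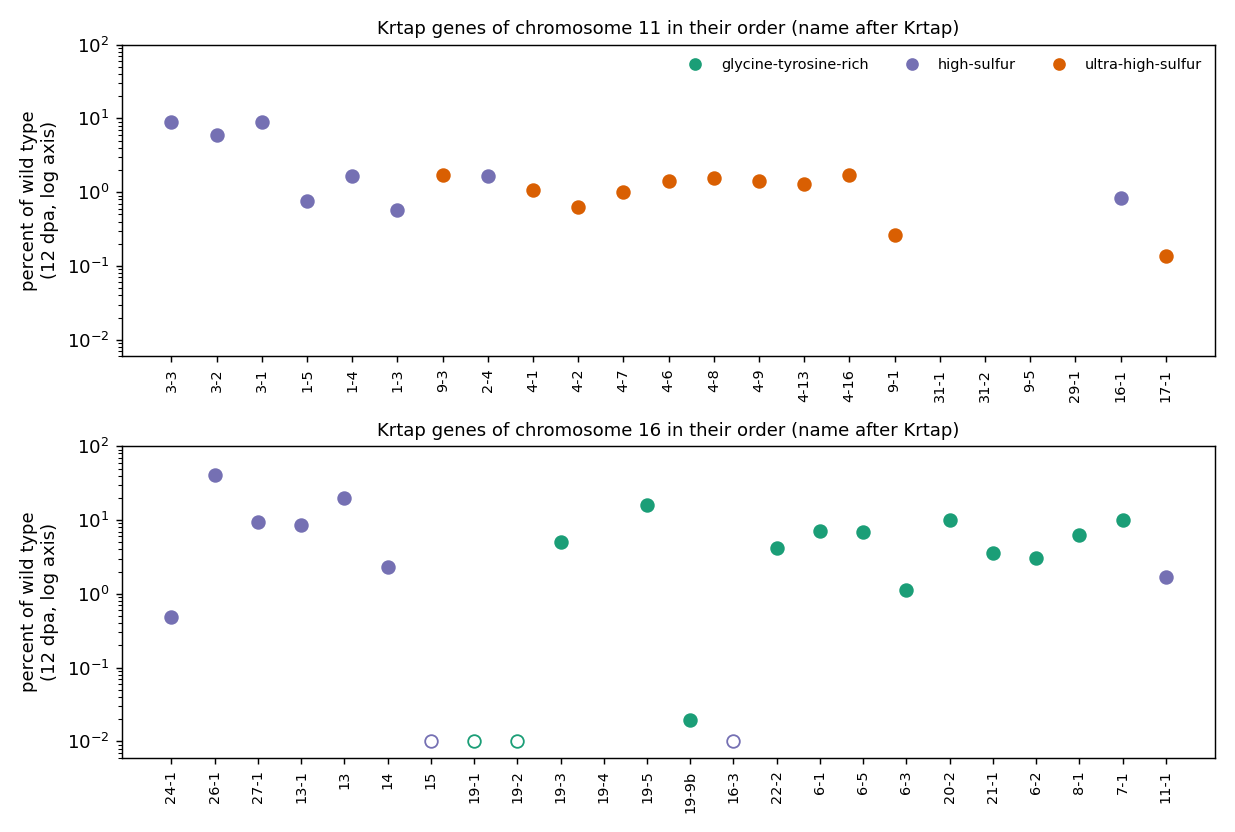
Mutant mean TPM as a percent of the wild type mean at 12 dpa (log axis) for the Krtap genes of chromosomes 11 and 16 in their order along the chromosome, coloured by class. Open circles stand at 0.01 for genes with no mutant count, and untested genes have no point. Subfamily 3 stands above its neighbours on chromosome 11, and Krtap19-9b and Krtap16-3 stand below theirs on chromosome 16.

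Hard keratins, the filament proteins that the Krtap products embed, were lower with them, with 2 exceptions. Over all genes tested, 22.2% were called lower over both days and 21.5% higher. Of 9 type I hard keratins 8 were called lower over both days and 0 higher, with a median log2 difference of -6.50. The 8 include Krt40, at 0 in all 6 mutant libraries and 0.18 TPM or less in the wild type. It was tested through wild type libraries only and so had to differ. Of 5 type II hard keratins 4 were called lower and 0 higher, with a median of -5.19. Krt85 and Krt87 of the type II list were not in the table used here. Krt36 and Krt84 had the highest mean over all 10 libraries in their lists, though not in the wild type alone, and did not pass the test. Krt36 was at 1299 and 2451 TPM in the wild type and 1312, 2539 and 1994 TPM in the mutants of 12 dpa, and at 14 dpa at 908 and 737 TPM against 1162, 623 and 1257 TPM, so the groups overlapped on both days (log2 difference -0.13, SE 0.27, adjusted p = 0.724). Krt84 was at 1339 and 1965 TPM against 1338, 2771 and 2288 TPM at 12 dpa and at 834 and 494 TPM against 1425, 582 and 1203 TPM at 14 dpa, for wild type and mutant in that order (log2 difference 0.20, SE 0.31, adjusted p = 0.627).

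The ratio of Krtap to hard keratin transcripts therefore depended on which keratins were counted. Against all 14 in the table, summed Krtap TPM was 2.07 to 2.60 times the keratin TPM in the wild type libraries, 0.475 to 0.865 times in the mutants of 12 dpa and 0.210 to 0.363 times in the mutants of 14 dpa. Krt36 and Krt84 made up 12.0% to 20.4% of the hard keratin TPM in the wild type and 87.2% to 97.3% in the mutants. Against the other 12, a split made after their values were seen, the ratio was 2.36 to 3.12 in the wild type and 4.88 to 13.2 in the mutants. The mutant libraries were thus below every wild type library by the first ratio and above every one by the second. Taking out Krt36 and Krt84, which were not called lower, raises the ratio most in mutants, with every Krtap gene left in. The change of order follows from that choice.

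**Figure D5:**
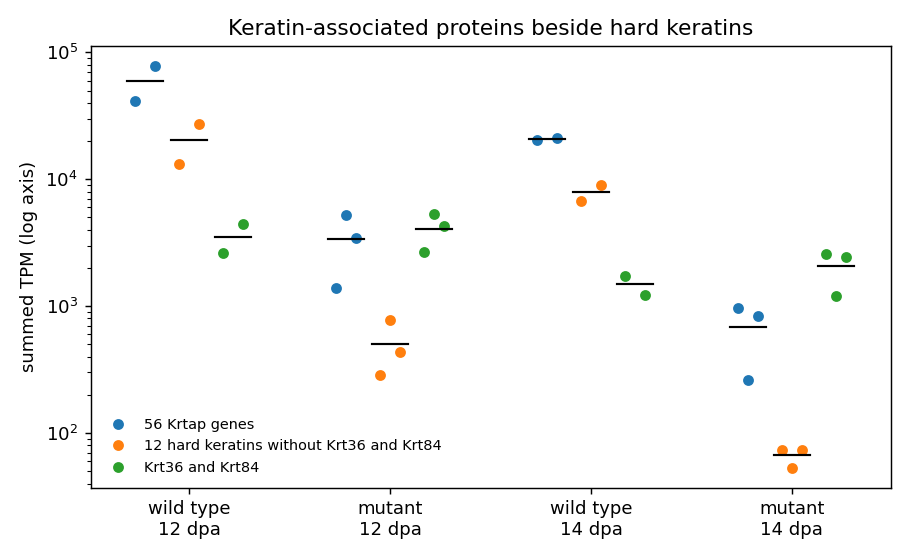
Summed TPM (log axis) of the 56 Krtap genes, of 12 hard keratins and of Krt36 with Krt84 in the 10 libraries, 1 point per library and a bar at the mean of the group. The first 2 sums are lower in every mutant library than in any wild type library of that day, while the sum of Krt36 and Krt84 overlaps between genotypes on both days.

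Regulators known to act on hard keratin and Krtap genes moved less. Of 15 tested, 7 were called lower over both days, 3 higher and 5 neither, with a median log2 difference of -0.46. Over all genes tested 22.2% were called lower and 21.5% higher, so the count higher is close to that of all genes. Hoxc13, the homeobox factor that activates hair keratin and Krtap genes, was at 40.2 and 67.2 TPM in the wild type and 25.2, 35.7 and 41.03 TPM in the mutants of 12 dpa, and at 14 dpa at 19.99 and 56.2 TPM against 17.6, 17.3 and 20.7 TPM. The 2 groups overlapped on both days, and its log2 difference over both was -1.10 (SE 0.21, adjusted p = 0.00354). Foxn1, a factor of the hair shaft and nail, fell by 1.60 (SE 0.25, adjusted p = 0.00157), and Msx2, a homeobox factor of the hair and nail matrix, by 2.98 (SE 0.33, adjusted p = 0.000389). Lef1, which carries Wnt signals to the nucleus, fell by 4.47 (SE 0.44, adjusted p = 0.00023), all on the log2 scale. Gata3 (0.90), Bmpr1a (0.27) and Vdr (0.41) were the 3 called higher, and Cux1, the most abundant, did not pass (-0.12, SE 0.11, adjusted p = 0.405).

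Of 18 tested genes for crosslinking, cysteine supply and other shaft proteins, 11 were called lower, 2 higher and 5 neither (22.2% and 21.5% of all genes), with a median log2 difference of -1.25. Gprc5d, an orphan receptor of hardening hair and nail cells, was at 136 and 461 TPM in the wild type and 0, 0 and 0.02 TPM in the mutants of 12 dpa. It was at 0.02 TPM or less in every mutant library, so its call rests on the wild type level alone. Psors1c2, the most abundant of the list, fell by 1.85 (SE 0.34, adjusted p = 0.00351). Tgm3 (0.58, SE 0.19, adjusted p = 0.0315) and Tgm5 (1.003, SE 0.31, adjusted p = 0.028), transglutaminases that crosslink proteins of hair and epidermis, were higher.

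Marker genes of other tissue layers were counted in the same comparison, in which 22.2% of all genes were called lower and 21.5% higher. Of 9 tested genes of the interfollicular epidermis 6 were called higher, 0 lower and 3 neither, and their summed level was 16803 to 22687 TPM in the wild type and 38624 to 50153 TPM in the mutants of 12 dpa. At 14 dpa these ranges were 17100 to 17539 TPM and 36643 to 60420 TPM. Of 4 genes of the companion layer and nail bed 2 were called higher and 0 lower. Markers of the hair inner root sheath and medulla summed to 7.80 TPM or less in every library, with Krt71 at 0 in all 10. Of 8 blastema fibroblast genes 7 were called lower, of 4 endothelial genes 4 and of 4 bone genes 2, and none of these was called higher. In the list of neutrophils and macrophages, S100a8 and S100a9, which keratinocytes also make, were called higher. S100a8 was at 5.98 to 28.9 TPM in the wild type and 59.5 to 918 TPM in the mutants, and S100a9 at 3.19 to 12.2 TPM and 54.98 to 1169 TPM. The macrophage gene Cd68 did not pass the test (log2 difference -0.41, SE 0.28, adjusted p = 0.27), and the neutrophil gene Ly6g was at 0.33 TPM or less in every library. The part of these shifts in the Krtap result was not tested.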

How the data were processed

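RNA from 10 libraries was sequenced after a stranded total RNA preparation, per the labels' protocols. Reads were aligned with STAR 2.7.8a and quantified with RSEM 1.3.0 against GRCm39, per the submitters' processing notes. The authors deposited an expected count (an estimated count that need not be whole) and a TPM for each gene and library, and RSEM divides reads shared by near-identical genes between them. Expected counts were rounded and tested with edgeR 4.0.16 (quasi-likelihood, robust, TMM factors, R 4.3.3) in 1 fit of the 4 groups. The filter kept 20216 genes (filterByExpr, minimum count 10, minimum total 15). Benjamini-Hochberg adjustment ran over all of them, with a threshold of 0.05. Log2 differences are mutant minus wild type with the SE of the fit, percents kept are ratios of mean TPM, and intervals of ratios cover counting error only.

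Genes named were the gene of each subfamily with the highest mean TPM over all 10 libraries, where that was at least 1, the 3 highest in mutants and 5 with no mutant count. From other lists they were the gene of highest mean TPM and those against the direction of most. Krtap6-3, Krtap6-1, Krtap9-1, Krtap19-5, Krtap13-1, Krtap14, Krtap16-1, Krtap24-1, Krtap28-13, S100a8, S100a9, Cd68, Ly6g, Krtap3-2, Krtap3-3, Hoxc13, Foxn1, Msx2, Lef1 and Gprc5d were added after their values were seen. Krtap4-2 and Krtap4-13 were also added after their values were seen. The members and lists were chosen with earlier results of these data known. The gene order on chromosomes and the promoters came from RefSeq (GRCm38.p6) and coding sequences from GENCODE M21, builds other than that of the counts. Wild type libraries of 14 dpa are numbered oppositely in title and description, and titles were used. Alternatives were other size factors, filters, DESeq2 1.42.0, limma 3.58.1 on log2(TPM + 1) and log2(TPM + 0.1), a replicate block, the genotype tag and each library left out. The fit was tested on simulated data.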

Additional observations from a re-analysis of the deposited data

How the results depend on the processing

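Every call of a Krtap gene in the genotype comparisons was toward lower levels in mutants under each alternative run. The filter on low counts was applied anew in each fit, so the number of Krtap genes tested could differ from 44. Where the share of all genes called in the same fit is not given, the counts show nothing particular to the Krtap genes. Counting the mutant library of 14 dpa with the wild type tag as wild type left 0 of 44 genes called over both days, 0 at 12 dpa and 0 at 14 dpa, and the cause was not tested. Leaving out 1 library gave 43 to 45 calls over both days, 30 to 42 at 12 dpa (lowest without wild type replicate 2 of that day) and 35 to 43 at 14 dpa (lowest without wild type replicate 1). Without both doubted libraries of 14 dpa, an alternative chosen after seeing the data, the counts were 42, 39 and 30. With a replicate block they were 43, 32 and 40. Libraries with the same number showed only weak common deviation (correlations -0.121 to 0.0862). In a group of 2 the deviations of its libraries are mirror images, so this check cannot exclude that the numbers pair them. For the difference between days, limma on log2(TPM + 1) called 1 gene, with and without a filter, and for the wild type change it called 1, or 2 without a filter, and 1 on log2(TPM + 0.1). These were Krtap19-9a each time and Krtap5-4 once, both low. The calls of Krtap19-9a rest on 2 counts, both in the wild type of 14 dpa. For the mutant change the counts were 25 with DESeq2, 1 with a stricter filter (Krtap6-3), 5 and 7 with limma on log2(TPM + 1) and log2(TPM + 0.1), and 0 to 7 with 1 library left out, with 7 without mutant replicate 1 of 12 dpa and 3 without replicate 2. Krtap genes below about 1 TPM rest on few reads, and 2 wild type libraries a day limit every comparison.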
